A study of Mus musculus with 3 samples.

Results

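Proteasome subunit genes were examined in a chromatin immunoprecipitation and sequencing study of serum response factor (SRF) in whole mouse cornea. The genes were taken by name, as every symbol in the authors' gene table that starts with Psma, Psmb, Psmc, Psmd, Psme, Psmf or Psmg followed by a digit, which gave 45 of 16697 genes with 89 of 31850 regions. The mutant library came from Dstn-corn1 mice, which lack functional destrin, a protein that takes actin filaments apart, and the other library came from wildtype mice. Both were made with an antibody against SRF from whole cornea of mice of mixed strain background at about 8 weeks of age without treatment, and an input library without antibody was in no comparison. The titles give the genotypes, whereas the growth notes name mutant mice for every library, and the sources used here do not state the genotype of the input or whether corneas were pooled. With 1 library each, the design leaves every difference without a replicate check and without a p-value.

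The proteasome is the large protease that degrades proteins tagged with ubiquitin. Its barrel-shaped core is built of alpha rings, which gate the entrance, and beta rings, which cut the substrate, and a regulatory particle with an ATPase ring recognises, unfolds and feeds the substrate in. Every cell needs the complex, and its genes are known to be driven together by the factor Nfe2l1 when proteasome activity is short. SRF is known for actin cytoskeleton genes and for immediate early genes, with cofactors of the MRTF and TCF families; TCF factors belong to the ETS family.

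Each region was merged by the authors from both libraries, and its peak height is its maximum signal in a library. Called intervals numbered 16399 in mutant and 31282 in wildtype, with lowest heights of 9 in each library, and the read depth behind them is unknown. Dstn had 3 regions, all listed at 0 in mutant, with wildtype heights of 35, 11 and 13, so these values did not conflict with the titles. SRF binding does not measure which cells were present. Of genes that mark corneal epithelium, 4 of 6 carried an interval in mutant and 5 in wildtype, and for stroma these were 1 and 2 of 4, for corneal endothelium 1 and 2 of 3, for leukocytes 1 and 2 of 4 and for vessels 1 and 3 of 3. In whole tissue, binding in fewer cells and less binding per cell cannot be told apart. Heights were mostly lower in mutant, and the sources used here do not state any scaling between libraries. Log2 ratios below are of mutant over wildtype height after adding 1 to each, and the ratios of proteasome genes are read against those of all genes.

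SRF regions lay over the starts of most proteasome genes. A region centred within 1 kb of the gene start, called a gene-start region here, was present for 35 of the 45 genes (77.8%), against 48.3% of all genes in the table. Such regions with a height above 0 in each library were also present for 64 of 70 genes named for mitochondrial ribosomal proteins. For genes named for cytoplasmic ribosomal proteins these were 70 of 101. The 10 genes without such a region were Psmb1, Psmb4, Psmb5, Psmb8, Psmb10, Psmb11, Psmc5, Psmd9, Psme1 and Psme4. A CpG island lay in 33 of the 35 gene-start regions (94.3%), against 84.6% of 7234 gene-start regions of all genes. Of the 35, 7 held the start of another gene too (20%, against 15.8%). These neighbours were Mrpl32 at Psma2, Ss18l1 at Psma7, Tap1 at Psmb9, Dnajc2 at Psmc2, Sirt3 at Psmd13, Cep76 at Psmg2 and Rnf31 at Psme2.

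The 250 bases before the start are shown for Psma1, Psmd6, Psmd1 and Psmc6, the highest gene-start regions with a sequence in the RefSeq promoter table (GRCm38.p6, the assembly behind mm10), and for Psmd4, whose region was called in mutant only and which was chosen after its values were seen. Capitals mark matches on either strand to the CArG box, the known SRF site, to CCGGAA, a core bound by ETS factors, to CCAAT and to GGGCGG, a GC box. Adjoining or overlapping matches form a single run of capitals. Positions are chr7:114276117-114276366 on the minus strand for Psma1, chr14:14120946-14121195 minus for Psmd6, chr1:86064369-86064618 plus for Psmd1, chr14:45329574-45329823 plus for Psmc6 and chr3:95042615-95042864 minus for Psmd4. None of these 5 stretches holds a CArG box, but each covers only part of its region. The summits of Psma1, 20 bp past the start, and of Psmd1, at -267 bp, lie outside the bases shown.
Psma1: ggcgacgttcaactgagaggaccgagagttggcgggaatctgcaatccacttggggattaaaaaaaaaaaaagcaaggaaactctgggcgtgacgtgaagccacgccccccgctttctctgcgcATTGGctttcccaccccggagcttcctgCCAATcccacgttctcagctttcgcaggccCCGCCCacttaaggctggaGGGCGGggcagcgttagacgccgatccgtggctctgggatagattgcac
Psmd6: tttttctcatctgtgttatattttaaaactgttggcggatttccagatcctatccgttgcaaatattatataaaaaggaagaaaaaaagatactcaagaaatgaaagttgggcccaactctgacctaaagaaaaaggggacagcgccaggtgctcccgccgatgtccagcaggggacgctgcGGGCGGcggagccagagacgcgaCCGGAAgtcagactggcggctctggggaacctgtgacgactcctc
Psmd1: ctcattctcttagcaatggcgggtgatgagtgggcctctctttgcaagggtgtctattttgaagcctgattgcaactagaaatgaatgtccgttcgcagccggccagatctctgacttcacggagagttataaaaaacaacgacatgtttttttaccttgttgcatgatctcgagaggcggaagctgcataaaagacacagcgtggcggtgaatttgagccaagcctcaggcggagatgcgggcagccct
Psmc6: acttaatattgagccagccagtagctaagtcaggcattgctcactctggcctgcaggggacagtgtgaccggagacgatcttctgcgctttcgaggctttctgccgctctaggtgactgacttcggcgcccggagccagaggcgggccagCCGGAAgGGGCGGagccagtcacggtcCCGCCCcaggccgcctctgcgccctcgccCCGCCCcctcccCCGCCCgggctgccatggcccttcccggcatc
Psmd4: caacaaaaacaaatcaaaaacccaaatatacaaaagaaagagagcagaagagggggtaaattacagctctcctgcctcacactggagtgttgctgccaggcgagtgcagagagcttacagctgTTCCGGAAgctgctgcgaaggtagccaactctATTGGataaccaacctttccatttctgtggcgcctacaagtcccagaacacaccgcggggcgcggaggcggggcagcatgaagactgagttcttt

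Promoter sequences of 300 bases, with 250 before the start and 50 after it, were found by gene identifier for 38 of the 45 genes, as 41 promoters. An exact CArG box was in 1 of the 41 (2.44%), against 1.63% of all 32851 promoters. That match belongs to an upstream start of Psma6 at 55384222 on chromosome 12, 14603 bp before the start that the authors list, where no region was assigned. Its 30 bases (chr12:55384071-55384100, plus strand), with the box in capitals, are
Psma6: accgggcagaCCATTATTGGggatcaagct
With 1 mismatch allowed, 9 of 41 promoters matched (22.0%, against 21.1%). The CCGGAA core was in 21 of 41 promoters (51.2%), against 14.9% of all promoters and 31.1% of 7826 promoters of genes with a gene-start region. The 41 include promoters of genes without a gene-start region, which the 7826 leave out. The TGACNNNGC motif, the core of the element that Nfe2l1 binds, was in 6 of 41 (14.6%), against 12.4% and 14.7% of the same sets, at Psmb5, Psmb6, Psmc6, Psmd9, Psmd12 and Psme4. GGGCGG was in 21 of 41 (51.2%, against 35.7% and 65.8%) and CCAAT in 14 (34.1%, against 37.4% and 37.7%). The motif of nuclear respiratory factor 1 (NRF1), which is not Nfe2l1, was in 6 (14.6%, against 6.23% and 14.1%). CACGTG was in 3 (7.32%, against 7.15% and 9.95%), the motif of the factor YY1 in 1 (2.44%, against 0.633% and 1.85%) and TGACGTCA in 0, against 1.79% and 3.46%. Motif matches are descriptions of letters and do not show binding. The 300 bases searched are shorter than the gene-start regions, so a CArG box elsewhere in a region would be missed. Among the 29 genes with a gene-start region and a sequence, the 17 with CCGGAA had a median height of 16.0 in mutant and 32.0 in wildtype. The 12 without it had medians of 15.0 and 23.0, and Psma1, the highest gene, was among these.

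**Figure D1:**
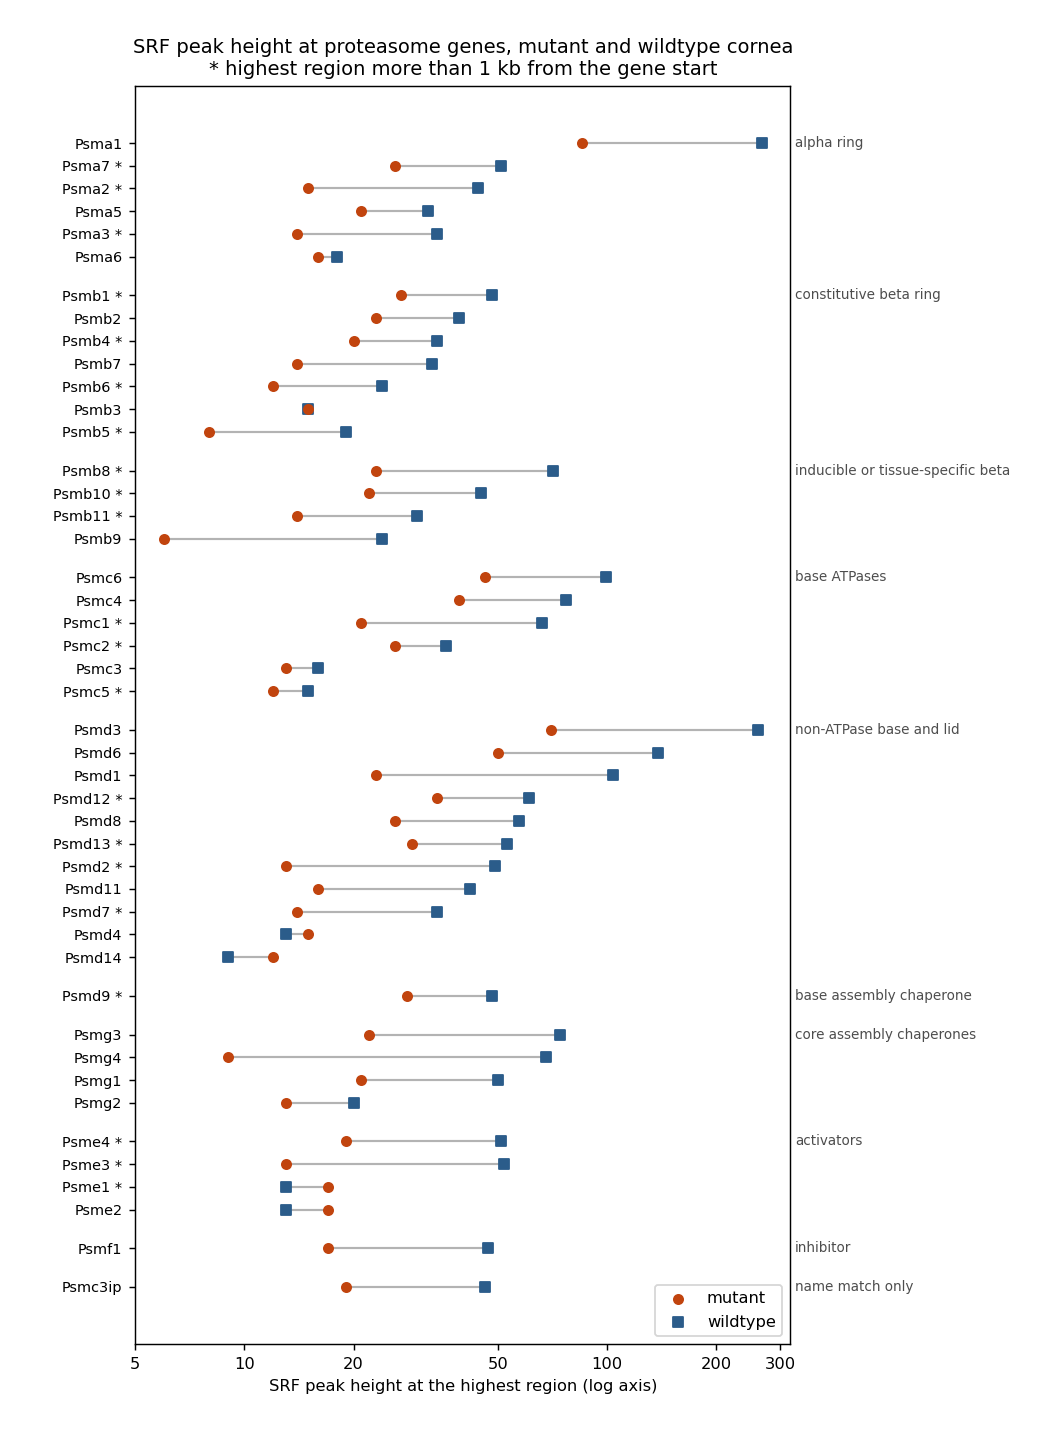
SRF peak height (horizontal log axis) at the highest region of each of the 45 genes, grouped by role, with circles for the mutant and squares for the wildtype library, 1 library each. Wildtype squares lie to the right of mutant circles at 40 genes, and the 2 highest genes, Psma1 and Psmd3, stand far from the rest.

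Heights spanned a wide range within the complex. For each gene the region of highest mean height was taken, which was the gene-start region for 24 genes (53.3%) and a more distant region for 21; over all genes, 27.3% of highest regions were at the start. Psma1, an alpha ring gene, had 85 in mutant and 268 in wildtype at its start (chr7:114275224-114276955), which ranked 48 by mean height among all 16697 genes. Psmd3, a subunit of the lid of the regulatory particle, had 70 and 261 in a region over its start (chr11:98681977-98683291) also assigned to Gsdma, and ranked 66. Next came Psmd6, another lid subunit, with 50 and 138, and Psmc6, an ATPase, with 46 and 99, at ranks 503 and 977. Against these, Psmd14, the deubiquitinase of the lid, had 12 and 9 and ranked 16035. The median over the 45 genes was 19.0 in mutant and 45.0 in wildtype, beside 18.0 and 40 over 16690 genes with a height above 0 in each library. The plot of heights by gene shows that heights differed widely within a role.

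Most proteasome genes had lower heights in mutant, in counts near those of all genes. Of the 45 genes, 25 were at least 2-fold lower in mutant (55.6%), beside 57.6% across the whole table, while 0 were at least 2-fold higher, beside 0.198%. Their median log2 ratio was -1.09, beside -1.08 for all genes. At the gene-start regions, 15 of 35 genes were at least 2-fold lower (42.9%, against 38.8% of 8058 genes with such a region) and 0 at least 2-fold higher (against 0.323%), with a median of -0.87 beside -0.79. Near the 2-fold limit stood Psmb11 at -1.05 and Psmb10 at -1.0 on the inside and Psmc4 at -0.96 and Psma7 at -0.95 on the outside. Scaling the libraries to a common median, which shifts log2 ratios by 1.0 before 1 is added, gave 2 genes at least 2-fold lower (4.44%, beside 6.56% of all genes), 4 at least 2-fold higher (8.89%, beside 3.26%) and a median of -0.10, beside -0.12. That scaling turned the sign of 14 of the 45 ratios. With that scaling the medians of the constitutive beta ring, ATPase and activator genes stood above 0, at 0.16, 0.26 and 0.43. With the average height of the region in place of the peak, 15 of 45 were at least 2-fold lower (33.3%, beside 30% of all genes). Genes named for cytoplasmic ribosomal proteins had a median of -0.92 over 101 genes and those named for mitochondrial ribosomal proteins -1.16 over 70. Both sets were taken by the start of the symbol and can include genes that encode no ribosomal protein. Differences between these sets were not tested.

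Most proteasome genes had a called interval in both libraries, as did most genes of the whole table. An interval was called for 40 genes in mutant (88.9%, against 73.8% of all genes) and for 41 in wildtype (91.1%, against 99.0%). In both it was called for 36 (80.0%). For all genes, the 73.8% called in mutant include 1.04% called in mutant only, and the rest were called in both. The 4 genes called in mutant only (8.89%, against 1.04%) were Psme1, Psme2, Psmd4 and Psmd14. Those called in wildtype only numbered 5 (11.1%, against 26.2%) and were Psmb3, Psmb5, Psmb9, Psmb11 and Psmd11. Psme1 and Psme2, which encode the interferon-induced activator that caps the core, share their only region, so the 4 genes rest on 3 regions, and 17 of the 45 genes had a single region each. Counted by region, 3 of 35 gene-start regions were called in mutant only (8.57%), against 4.15% of gene-start regions of all genes. All 3 were low, at 17 in mutant and 13 in wildtype for Psme1 and Psme2, 15 and 13 for Psmd4, the ubiquitin receptor, and 12 and 9 for Psmd14. A call did not follow height alone, since the Psmb3 start region had 15 in each library and was called in wildtype only, as was that of Psma2 with 13 in mutant and 12 in wildtype. Counting intervals of height 24 (their median) or more, 13 genes had a call in mutant (28.9%, against 35.6% of all genes) and 35 in wildtype (77.8%, against 77.1%). The share called in mutant thus lay above that of all genes without the height limit and below it with the limit.

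**Figure D2:**
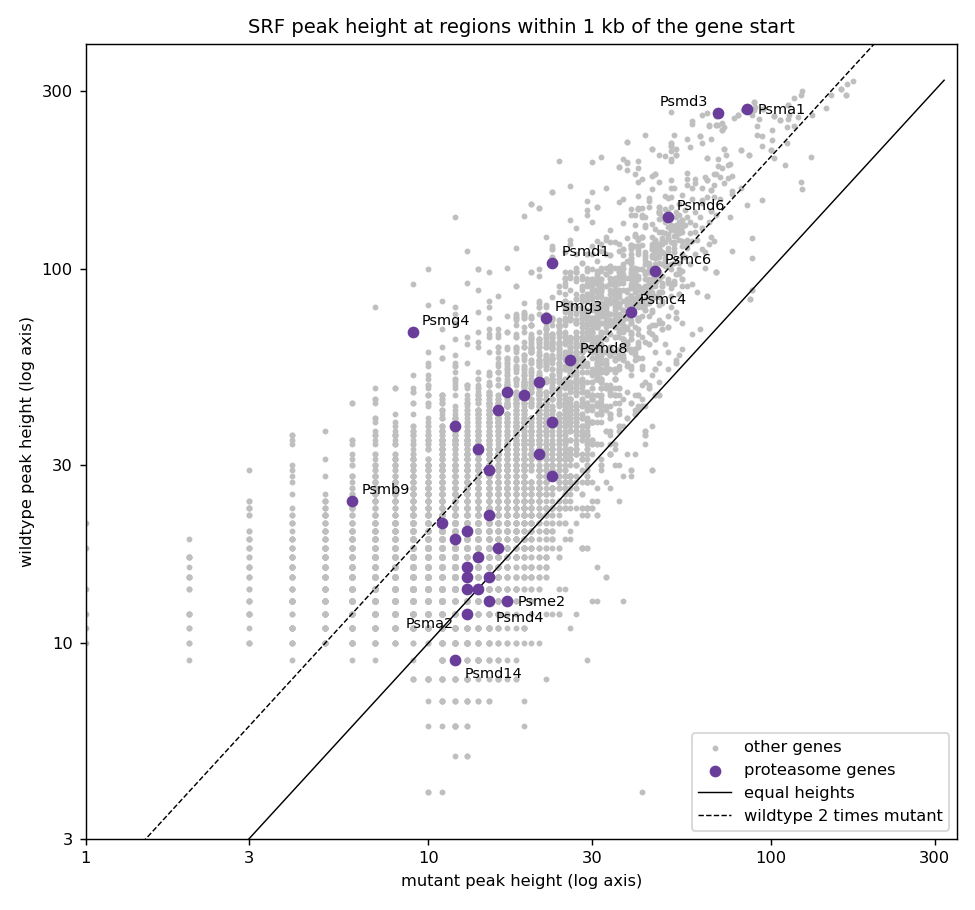
Peak height in mutant (horizontal) and wildtype (vertical) at regions within 1 kb of the gene start, on log axes, for 35 proteasome genes and other genes, 1 library per genotype. The solid line marks equal heights and the dashed line a wildtype height 2 times the mutant one. Of the 8 proteasome regions with a mean height of 40 or more, 7 (87.5%) were at least 2-fold lower in mutant. For all genes this share was 73.7% of 1269 gene-start regions of that height. Many low proteasome regions lie near the solid line.

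The gene-start regions fell along a range from low regions of nearly equal height to high regions that were much lower in mutant, as the plot of gene-start heights shows. In 16 of the 35, the mean height was under 20, with a median of 13 in mutant and 15.5 in wildtype and a median log2 ratio of -0.18, beside -0.59 for 3950 such regions of all genes. Of these 16, 4 were higher in mutant (25%, against 12.7%). In 11 regions with mean heights of 20 to under 40 the medians were 17.0 and 39.0, at a log2 ratio of -1.21, beside -0.87 for 2015 regions. In the 8 regions of 40 or more they were 42.5 and 101.5, at -1.55, beside -1.25 for 1269 regions. The same order with height was thus present over all genes. Mean height and ratio were taken from the same mutant and wildtype heights, so they are not independent and part of this order can be built in. The class limits were set after the values were seen, and the smaller classes hold few regions of these genes.

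The core genes showed both ends of this range. The 6 alpha ring genes had a median log2 ratio of -1.08 at their highest regions. Only Psma1 was at least 2-fold lower at its start (16.7%, against 38.8% of all genes with a gene-start region). The other start regions were low and closer to equal, at 21 in mutant and 32 in wildtype for Psma5, 15 and 22 for Psma7, 16 and 18 for Psma6, 14 and 14 for Psma3 and 13 and 12 for Psma2. Away from the start, Psma7 had 26 and 51 at -8762 bp from the start, Psma2 15 and 44 at 5711 bp inside the gene and Psma3 14 and 34 at -4619 bp. The ratio of Psma2 therefore depended on the region taken, at -1.49 for the highest and 0.11 for the start. Of the 7 constitutive beta ring genes (median -0.81), Psmb2 had 23 and 39 at its start, Psmb7, a catalytic subunit, 14 and 33, and Psmb6, also catalytic, 14 and 17. Psmb5, which carries the chymotrypsin-like activity, had no gene-start region, and its only one, at 7837 bp past the start and shared with Mir686, had 8 and 19. Psmb1 had 27 and 48 in a region that lies over the start of Tbp, and Psmb4 20 and 34 at -1824 bp.

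All 4 inducible or tissue-specific beta genes were at least 2-fold lower in mutant, as were 57.6% of all genes, with a median of -1.32 beside -1.08. Psmb9, of the immunoproteasome, had 6 in mutant and 24 in wildtype in the promoter it shares with the peptide transporter gene Tap1. Psmb8, its neighbour in the same gene cluster, had 23 and 71 at 6297 bp from its start, in a region that lies over the start of Tap2. Psmb10 had 22 and 45 at 7591 bp and Psmb11, a thymus-specific subunit, 14 and 30 at 11807 bp past the start, each in a region assigned to several genes. Only the Psmb9 region was within 1 kb of its gene's start. With the average value Psmb10 was at -0.76 and Psmb11 at -0.79, short of 2-fold, and with the scaled libraries none of the 4 reached it.

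The ATPases of the regulatory particle had a median of -0.71 over 6 genes. Of these, 2 were at least 2-fold lower (33.3%, beside 57.6% of all genes). Psmc6 at 46 in mutant and 99 in wildtype and Psmc4 at 39 and 77 (log2 ratio -0.96) were high at their starts. Psmc1 had 13 and 15 at its start and 21 and 66 at a region 21608 bp past it, near Nrde2. Psmc2 had 15 and 29 at the start shared with Dnajc2 and 26 and 36 at 1470 bp. Psmc3 had 13 and 16, and Psmc5 12 and 15 in a region over the start of Smarcd2. The low start regions of Psmc1 and Psmc3 thus differed little between the libraries.

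The 11 non-ATPase subunits of the base and lid all had a gene-start region. At these regions 6 were at least 2-fold lower in mutant (54.5%, against 38.8% of all genes with such a region). Psmd1, a large scaffold subunit, had 23 in mutant and 104 in wildtype (log2 ratio -2.13), and a region at -5000 bp had 33 and 81. Psmd3 was at -1.88, Psmd12 at 12 and 38, with 34 and 61 at -10037 bp near Pitpnc1, Psmd6 at -1.45, Psmd11 at 16 and 42 and Psmd8 at 26 and 57. Psmd2, the other large scaffold, had 11 and 21 at its start and 13 and 49 at -9276 bp, in a region shared with Ece2. Psmd13 had 23 and 28, with 29 and 53 at 26353 bp, Psmd7 13 and 14, with 14 and 34 at 11551 bp, Psmd4 15 and 13 and Psmd14 12 and 9, so that subunits of the same lid, such as Psmd3 and Psmd14, stood at opposite ends. Psmd7 and Psmd14, which form a dimer in the lid, were both low at the start, within 1 to 3 height units between libraries. Psmd9, a chaperone of base assembly, had regions only away from its start, the highest with 28 and 48.

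Among the chaperones of core assembly, Psmg4 had 9 in mutant and 68 in wildtype at its start, a log2 ratio of -2.79 and the lowest of the 45 genes, and it was not called there in mutant. Psmg3, its partner, had 22 and 74 (-1.71), Psmg1 21 and 50 (-1.21) and Psmg2 13 and 20 (-0.58). The nuclear activator gene Psme3 had 12 and 19 at its start and 13 and 52 past its end, at 7520 bp, and Psme4, another activator, 19 and 51 inside the gene. The inhibitor gene Psmf1 had 17 and 47 at the start and 9 and 49 in a region at -7259 bp. Psmc3ip, which matches the name rule but encodes a meiotic recombination factor and not a subunit, had 19 and 46, and without it 24 of 44 genes were at least 2-fold lower (54.5%).

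**Figure D3:**
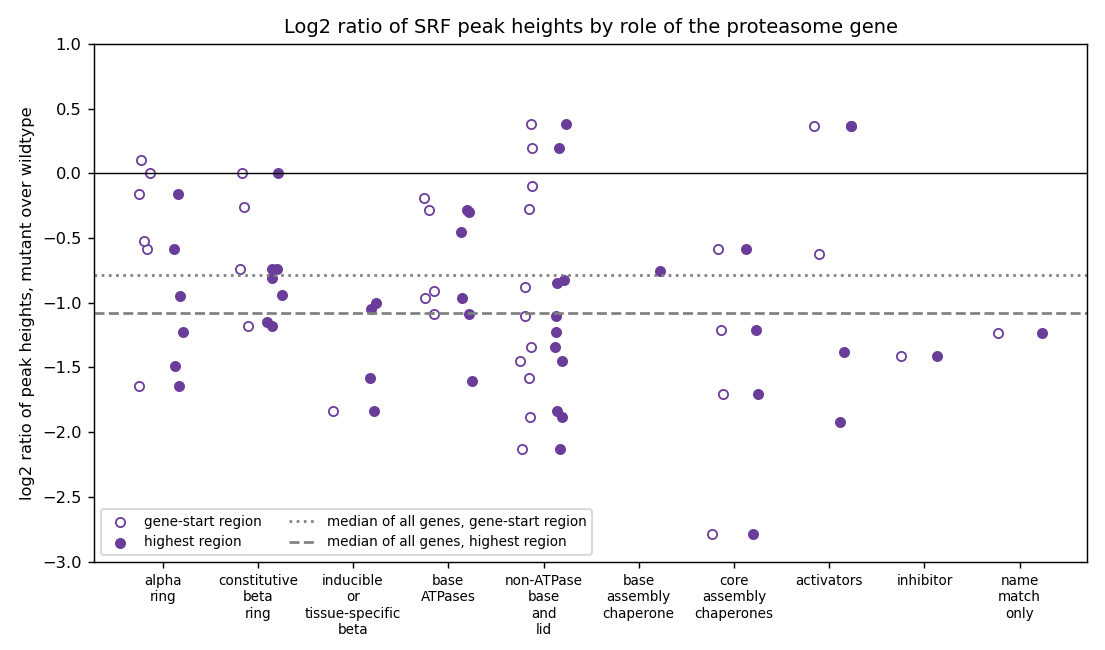
Log2 ratio of mutant over wildtype peak height (vertical) by role of the gene, with open circles for gene-start regions and filled circles for the highest region of each gene, 1 library per genotype. Dotted and dashed lines mark the medians of all genes, -0.79 and -1.08, and the roles spread to both sides of them, from -2.79 at Psmg4 to 0.38 at Psmd14.

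Summits at the gene starts were in nearly the same place in both libraries. Of 26 genes with a called gene-start interval in each, 22 had summits within 100 bp of each other, with a median gap of 32.0 bp. Both summits came from intervals within 1 kb of the same start, which limits the gap, and gaps over all genes were not computed. Psma1 had its summit 20 bp past the start in both libraries, Psmd6 at -88 bp, Psmc6 at -192 bp, Psmc4 at -180 bp and Psmd1 at -267 bp, upstream of the start. The widest gaps were at Psmc3ip (416 bp) and Psma3 (288 bp). Over 32 genes with such a wildtype interval, the summit lay at a median of -52.5 bp from the start, 29 within 250 bp of it and 26 upstream. The plot by distance shows the highest regions at the starts, with distant regions up to 34 in mutant and 81 in wildtype.

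**Figure D4:**
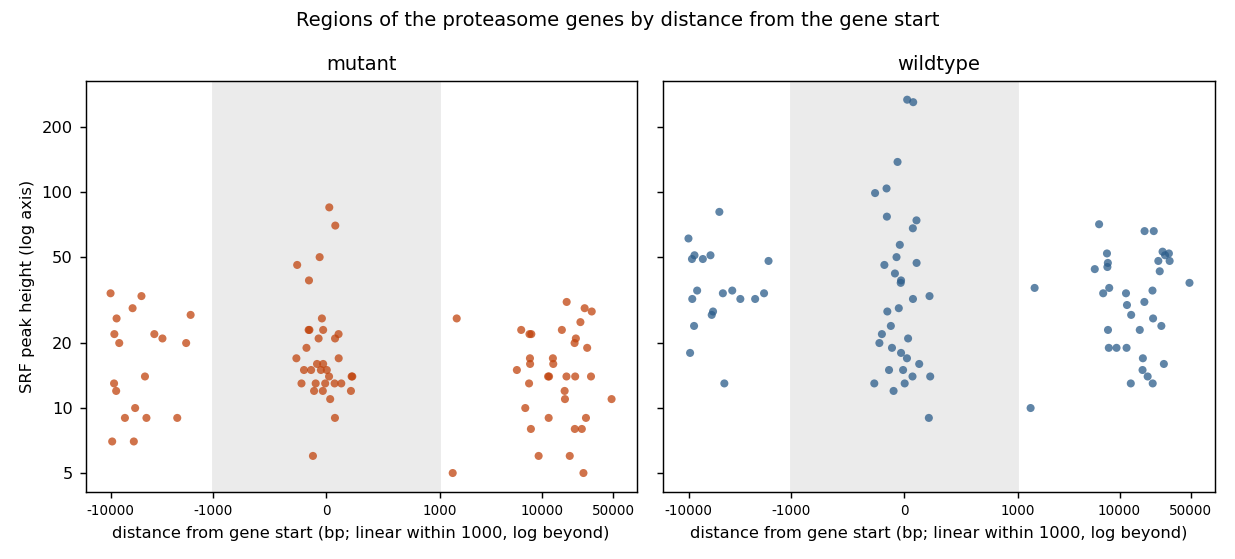
Peak height (vertical log axis) of the regions assigned to the 45 genes by distance of the region's centre from the gene start (linear within 1000 bp, shaded, and log beyond), with mutant on the left and wildtype on the right. Heights above 81 in wildtype occur only within 1000 bp of a start, and distant regions reach 34 in mutant and 81 in wildtype.

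Away from the starts, proteasome genes held 54 regions, and none was higher in mutant on the deposited scale. They had a median log2 ratio of -1.0, and 28 were at least 2-fold lower (51.9%). Among 17029 regions of all genes that lay over no gene start, 62.7% were. The sets are unlike, since some of the 54 lay over the start of a neighbouring gene, such as Tbp, Tap2 or Smarcd2. A CpG island lay in 22.2% of the 54 and 5.9% of the 17029. Of the 17029, 2.51% were higher in mutant. Of 24 proteasome genes with regions of both kinds, the gene-start region had the higher ratio in 15 (62.5%), against 63.6% of 5572 genes. Its wildtype height was below that of the highest distant region in 13 (54.2%), against 65.0%.

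Genes linked to the proteasome outside these names were looked at through a list of 45 genes for regulators, shuttle factors, ubiquitin itself and chaperones, of which 38 had a row under the symbols searched. An interval was called for 33 of the 38 in mutant (86.8%, beside 73.8% of all genes) and 38 in wildtype (beside 99.0%). At the highest region 20 were at least 2-fold lower in mutant (52.6%, against 57.6% of all genes) and 0 at least 2-fold higher, with a median log2 ratio of -1.03. Tap1 and Tap2, both among the 20, have the same highest region (23 in mutant and 71 in wildtype), which is also that of Psmb8. The gene-start region of Tap1 is that of Psmb9. At gene-start regions 12 of 35 were at least 2-fold lower (34.3%, against 38.8%), with a median of -0.56. Adrm1, a ubiquitin receptor of the regulatory particle, had the highest region, with 77 in mutant and 162 in wildtype at its start. Fbxo7, of a ubiquitin ligase, had 40 and 124 and Ubqln4, a shuttle factor, 29 and 94 at their starts, while Txnl1 had 56 and 142 at 38037 bp past its start. The lowest ratios were at Ube3c, a ubiquitin ligase (18 and 90), Uchl5, a deubiquitinase of the regulatory particle (18 and 66), and Nfe2l1 (12 and 41, at -7648 bp). At its start Nfe2l1 had 13 and 18. Among the highest ratios were those of Bag3 (14 and 14) and Tpp2 (21 and 29).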

How the data were processed

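SRF was immunoprecipitated from corneas of 1 mutant and 1 wildtype group, and genotypes were taken from titles. BWA and mm10 come from the submitters' processing notes, with interval caller, threshold and scaling not given in the sources used here. Deposited signal consists, per the file headers, of a peak and an average value for each merged region. No input values were used. Gene assignments and distances are the authors', and coordinates are as listed, with starts counted from 0 or 1 (not stated).

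A gene was represented by the region with the largest mean height (ties: nearest to the start, then lowest position). Genes whose region was listed at 0 in a library, 7 in all and none of them proteasome genes, were left out of ratios. With 1 library per genotype no test was run. Gene roles followed the names. Any proteasome gene could be named, with full values for the 12 highest, the 6 highest and 6 lowest ratios and those called in a single library; linked genes were named for the 5 highest means and the 3 highest and 3 lowest ratios at or above the median height of all regions in the higher library (13 in mutant, 28 in wildtype). Some of these are not reported here. The genes and lists were chosen with earlier results of these data known. Gene identifiers matched RefSeq for all 45 genes. RefSeq holds 51 protein-coding genes with such names; Psma4, Psma8, Psmd5, Psmd10 and Psme2b had no row in the table and were not analysed here, and Psme3ip1 stands there under another symbol that the name rule does not take. Alternatives were the average value, a pseudocount of 5, scaling, other choices of region, filters and limits. Software was Python 3.11.15, pandas 2.3.3, numpy 2.4.6, matplotlib 3.10.9 and scipy 1.17.1. Depth is unknown. No column of another series was found (0).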

Additional observations from a re-analysis of the deposited data

How the results depend on the processing

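No paired analysis was possible because mutant and wildtype had a single library, and for that reason none could be left out. The setting without Psmc3ip was chosen after seeing the data. The cause of the changes below was not tested, except where fewer genes or regions entered or where scaling shifts all ratios by construction. With the average value, 15 proteasome (33.3%) and 9 linked genes (23.7%) were at least 2-fold lower in mutant, beside 30% of all genes, and the proteasome median log2 ratio was -0.75, beside -0.79 for all genes. With scaling to a common median, 2 proteasome genes and 1 linked gene were at least 2-fold lower (4.44% and 2.63%, beside 6.56% of all genes), 4 proteasome genes were at least 2-fold higher (8.89%, beside 3.26%), and the medians were -0.10 and -0.071, beside -0.12 for all genes. With gene-start regions only, 15 proteasome and 12 linked genes were at least 2-fold lower (42.9% and 34.3%, beside 38.8%). With the region nearest to the start, 19 proteasome and 13 linked genes were (42.2% and 34.2%, beside 49.9%). Their medians with the nearest region were -0.87 and -0.53, beside -0.98 for all genes. Among genes whose region was assigned to no other gene, 9 of 15 were at least 2-fold lower (60.0%, against 60.4% of all such genes). With intervals at or above a height of 24, 13 proteasome genes were called in mutant (28.9%, against 35.6% of all genes). With 1 mismatch allowed, 9 promoters held a CArG box. The Psma2 ratio turned to 0.11 with the nearest region and with gene-start regions. A pseudocount of 5 left 22 proteasome genes at least 2-fold lower (48.9%, beside 46.2% of all genes), the mean over regions 23 (51.1%, beside 53.8%) and a height filter at the median of all regions 23 of 33 (69.7%, beside 62.6%). Of 260 values of single proteasome genes under another setting, 17 had the opposite sign, 14 of them with scaling, 2 those of Psma2 and 1 that of Psma6 with the average value (0.0395). Read depth was not known, and no precision is given for low heights.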
